A study of Mus musculus and Homo sapiens with 22 samples.

Results

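The genes described here build the microtubules and intermediate filaments of a neuron, steer their assembly, carry cargo along them and drive the growth cone. They are 40 mouse genes of the neuronal cytoskeleton and of axon growth, taken by symbol from a list of tubulins, neurofilament and other intermediate filament genes, microtubule-associated proteins, stathmins, collapsin response mediator proteins, kinesins and growth or adhesion genes. All 40 were found among the 22667 genes of the RNA-seq files of N2A, a mouse neuroblastoma line derived from the sympathetic lineage. Of these, 35 reached the level needed for the comparisons below, and the other 5 stayed under 1 RPKM in every file.

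The study asked how nSR100, Ptbp1 and U2af65 shape alternative splicing, and sequenced polyadenylated RNA from N2A cells in which each was depleted. Cells labelled shnSR100 carried a lentiviral hairpin against the 3′UTR of nSR100 (encoded by Srrm4, a neuronal splicing activator), and cells labelled shGFP carried one against GFP. Both were stable populations kept in 2 ug/mL puromycin, and each has 1 file that combines 2 sequencing runs of different read lengths, so no spread can be given. Cells labelled siU2af65 or siPtbp1 received an siRNA pool against U2af65 (encoded by U2af2, which binds the 3′ splice site) or Ptbp1 (a repressor of neuronal exons), with 1 library each. Cells labelled siControl received a non-targeting pool and have 2 libraries, a and b. The siRNA cells were harvested 48 hours after transfection. Neither siRNA knockdown has a replicate, and both are set against the same 2 siControl libraries, so their differences share those controls. The siU2af65 library carries the letter a and the siPtbp1 library the letter b, and the labels do not say what the letters stand for.

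Reads in genes ranged from 60220620 (shGFP) to 77138004 (siControl b) per file. The targeted genes followed the labels: Srrm4 was at 2.50 RPKM in shnSR100 cells and 11.6 in shGFP cells, U2af2 at 18.4 RPKM in siU2af65 cells against 113 and 105 in the siControl libraries, and Ptbp1 at 8.53 RPKM in siPtbp1 cells against 158 and 139 in the siControl libraries. RPKM are read counts scaled by gene length and by the file's total. Comparison between genes depends on the length counted, and comparison between files on scaling by the total, so both are approximate. The sympathetic regulators Hand2 and Gata2 were expressed in every file, while the mature neuron marker Rbfox3 stayed near 0. Astrocyte markers summed to 0.03 to 0.48 RPKM, with 0 of 4 reaching 1 RPKM.

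A microtubule is a hollow polymer of alpha and beta tubulin pairs. Neurons carry tubulin genes of their own beside those that all dividing cells use, and they stabilise the polymer with proteins such as tau. Neurofilaments and peripherin give axons calibre and strength. Stathmins and collapsin response mediator proteins act at the growth cone, where free tubulin enters the polymer, and kinesins walk outward along it.

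The tubulins carry the contrast between neuronal and general genes that follows. The promoters of 4 of them are shown as the 30 bases from 45 to 16 before the start site, where a TATA box lies when there is one, together with that of Prph, the most abundant member outside the tubulins and one of 2 members with the letters TATAAA there. The sequences are RefSeq's, from GRCm38.p6, read 5′ to 3′ on the gene's strand. Capitals mark TATAAA and GGGCGG (or its complement CCGCCC), the letters of a TATA box and of a GC box, on either strand.
Tubb2a, neuronal, minus strand, chr13:34078024-34078053: ctGGGCGGtccccgggTATAAAaggcggtg
Tuba1a, neuronal, minus strand, chr15:98953517-98953546: ttctcttacatcgaccgcctaagagtcgcg
Tuba1b, general, minus strand, chr15:98934406-98934435: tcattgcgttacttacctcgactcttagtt
Tubb5, general, minus strand, chr17:35838317-35838346: gttgggtaggctttgtctaagacccggggc
Prph, plus strand, chr15:99055129-99055158: ggagaccgcagggcTATAAAgCCGCCCcgc
Among the 23 members with a promoter in the table, TATAAA lay in this window in Prph and Tubb2a. Counted per promoter, that is 2 of their 28 promoters (7.14%), against 2.72% of all 32851 promoters. Within the full 300 bases it lay in 6 of the 28 (21.4%), against 13.6% of promoters. GGGCGG lay in the window in 7 of the 28 (25.0%), against 9.64%, and in the 300 bases in 19 (67.9%), against 35.7%. Some members have several promoters, which share a gene. The motifs do not overlap each other in any window shown, and these matches describe letters only. The neuronal tubulins shown differ from each other here: Tubb2a has both motifs, and Tuba1a has neither, as do the general Tuba1b and Tubb5.

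The members span a wide range of levels. Averaged over the 6 files, Tuba1a, the main alpha tubulin of young neurons, was highest at 1015 RPKM, followed by the general beta tubulin Tubb5 at 962 RPKM. Next came peripherin (Prph, the intermediate filament of peripheral neurons) at 728 RPKM, stathmin 1 (Stmn1) at 643, the general alpha tubulin Tuba1b at 642, the deubiquitinase Uchl1 at 521 and Tubb3, the beta tubulin used as a neuronal marker, at 354. The neighbours Stmn1 and Tuba1b overlapped in their range over the files, and so did Tuba1a and Tubb5. The rank of Tuba1a rests on 347 counted positions, against 2468 for Tubb5, and on a split of reads with Tuba1b that is uncertain, as described below. The neurofilament set was uneven: the heavy subunit Nefh averaged 18.7 RPKM and alpha-internexin (Ina) 34.4 RPKM, while the light and medium subunits Nefl and Nefm stayed at 0.12 RPKM or less. Doublecortin (Dcx), a protein of migrating young neurons, also stayed near 0, with 10 to 76 reads per file. Dpysl4 and the vesicle motor Kif1a, at 0.03 RPKM or less, complete the 5 members under 1 RPKM.

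**Figure D1:**
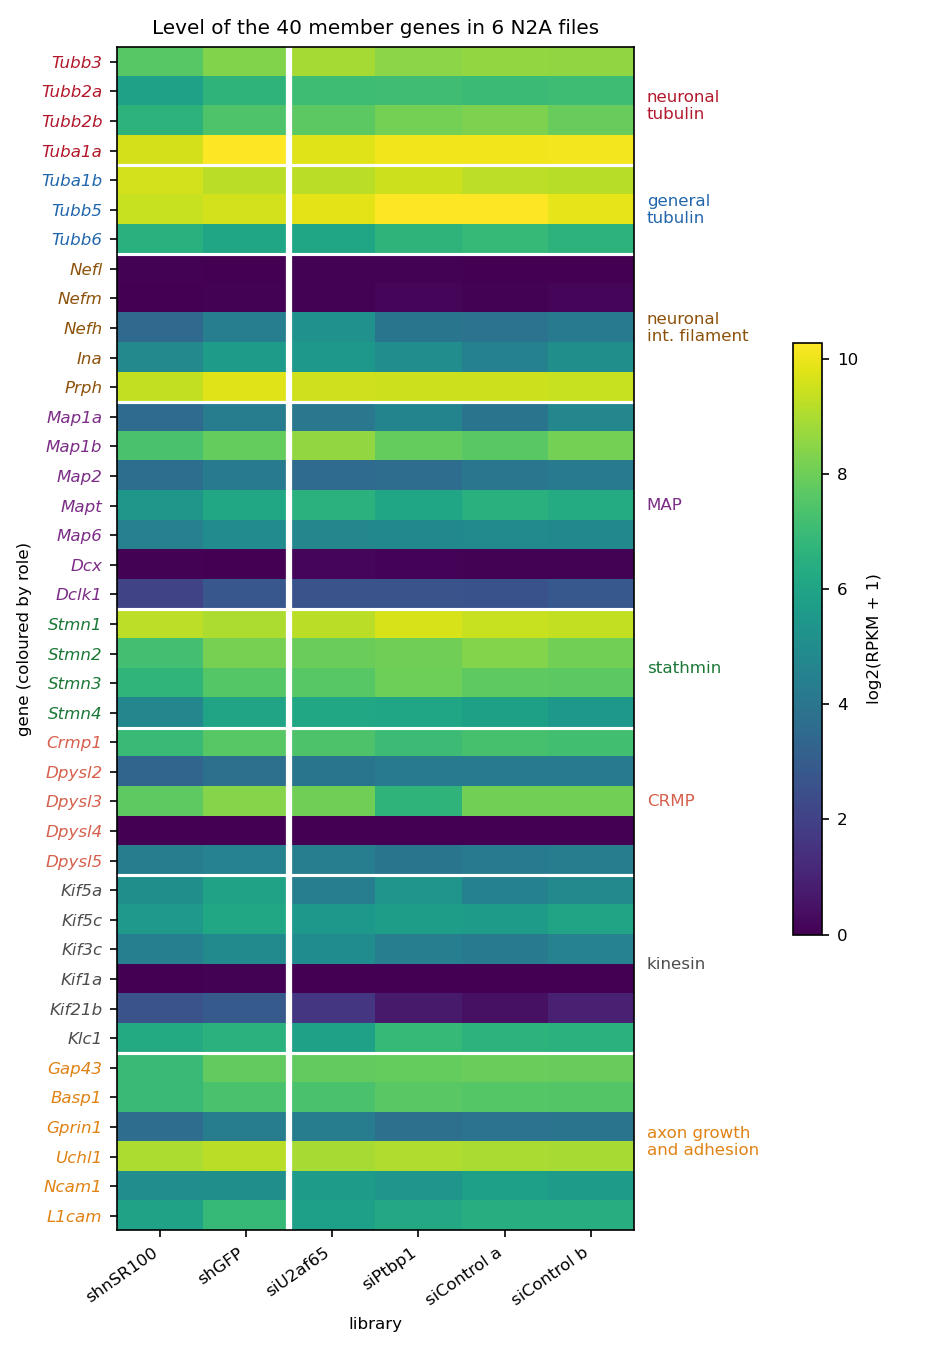
Level of each of the 40 genes as log2(RPKM + 1), by gene (rows, coloured by role) and file (columns), on a scale from dark (low) to yellow (high). The rows of Nefl, Nefm, Dcx, Dpysl4 and Kif1a are dark in all 6 files, and most rows outside the general tubulins and Stmn1 are darker in shnSR100 than in shGFP.

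In cells with the nSR100 hairpin, most of these genes were lower than in cells with the GFP hairpin. The exceptions were the general tubulins Tuba1b and Tubb6 and the stathmin Stmn1. Of the 35 members with at least 1 RPKM in either hairpin file, 32 were lower in shnSR100 and 3 were higher, where 44% of the 11877 genes at that level were lower. A difference of 1.5-fold or more on log2(RPKM + 1) was reached downward by 19 members, against 3.7% of all genes, and upward by 0 members, against 3.12%. A difference of 2-fold or more was reached by 1 member, Stmn4, which was lower, against 0.615% of genes lower by that much, 0.303% higher and 0.918% in either direction. The median difference of the members was −0.67 in log2, and that of all genes 0.04. There is 1 file per group, so no test stands behind these counts, and they compare 1 cell population with 1 other. The members were also chosen with earlier results of these data known, so the shares of all genes are given for description only. The percentages of shGFP below carry exact binomial intervals at 95% that cover counting error only. In bulk RNA, fewer cells of a type and less RNA per cell cannot be told apart.

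All 4 neuronal tubulins were lower in shnSR100 cells by a like amount. Tubb3 was at 193 RPKM in shnSR100 cells and 324 RPKM in shGFP cells, which is 59.5% (58.5 to 60.6). Tubb2a and Tubb2b, beta tubulins abundant in brain, were at 57.7 and 99.9 RPKM in shnSR100 cells and at 100.4 and 174 RPKM in shGFP cells. Tuba1a was at 775 RPKM in shnSR100 cells and 1238 RPKM in shGFP cells, which is 62.5% (61.4 to 63.7). The 4 differences lay between −0.80 and −0.68 in log2.

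The 3 general tubulins differed less and not in one direction. Tuba1b, the alpha tubulin of most cells, was at 767 RPKM in shnSR100 cells and 587 RPKM in shGFP cells, which is 131% (128 to 133). Tubb6, a beta tubulin used mainly outside the nervous system, was at 91.0 RPKM in shnSR100 cells and 65.4 RPKM in shGFP cells, or 139% (135 to 144). Tubb5 was at 676 RPKM in shnSR100 cells and 762.1 RPKM in shGFP cells, or 88.7% (88.0 to 89.4).

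Summed, the neuronal tubulins came to 1125 RPKM in shnSR100 cells and 1836 RPKM in shGFP cells, while the general ones came to 1534 RPKM in shnSR100 cells and 1415 RPKM in shGFP cells. The ratio of neuronal to general tubulin RNA was therefore 0.734 in shnSR100 cells and 1.30 in shGFP cells, and the first divided by the second is 0.565. Tuba1a made up 29.1% of the 7 tubulins in shnSR100 cells and 38.1% in shGFP cells, and Tuba1b 28.8% in shnSR100 cells and 18.1% in shGFP cells. Tuba1a and Tuba1b have nearly the same coding sequence, and the positions that count for them, as implied by reads and RPKM, number only 347 and 408, against 1642 for Tubb3. How reads shared by such copies were assigned is not given in the sources used here, so the split between Tuba1a and Tuba1b, and between Tubb2a and Tubb2b, is uncertain. With both alpha tubulins left out, the ratio of shnSR100 to shGFP was 0.632.

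**Figure D2:**
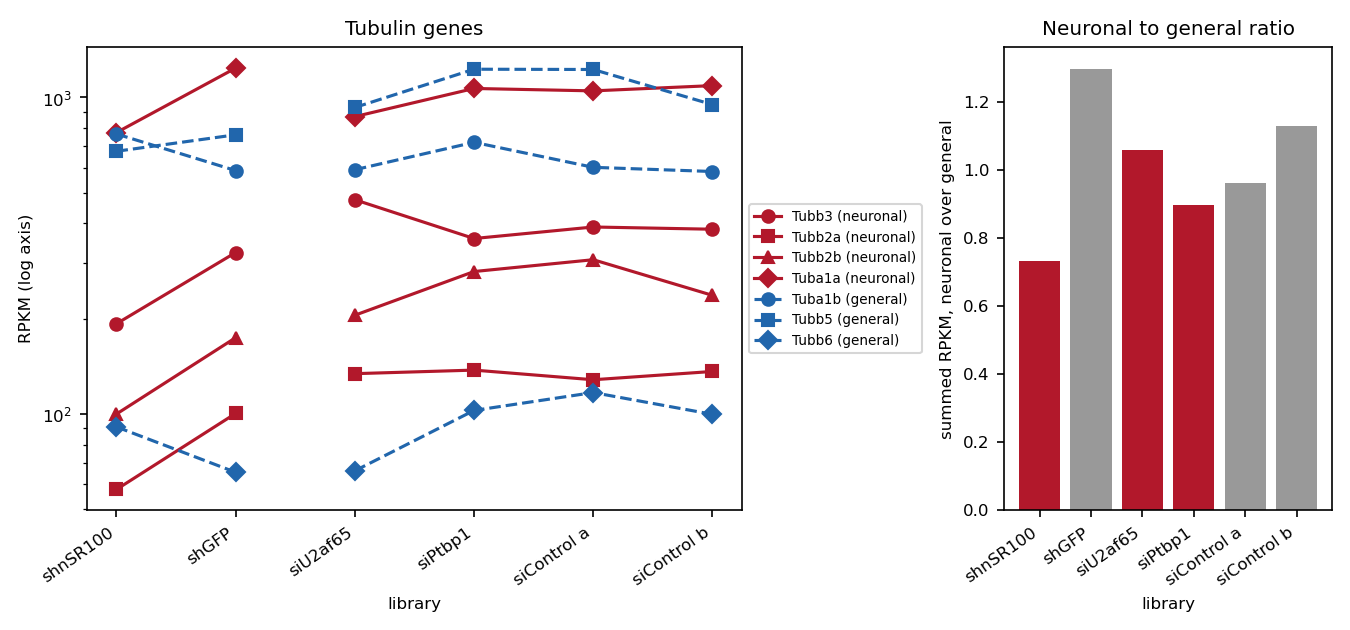
Left, RPKM on a log axis of the 4 neuronal tubulins (red, solid lines) and 3 general tubulins (blue, dashed lines) in each file, with lines only to guide the eye. Right, the ratio of their summed RPKM, with knockdown files in red and controls in grey: it is 0.734 in shnSR100 and 1.30 in shGFP, and between 0.899 and 1.13 in the 4 siRNA libraries.

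Among tubulins outside the list, 7 of the 8 with at least 1 RPKM were higher in shnSR100 cells, with a median of 0.22 in log2 and none past 1.5-fold. The most abundant, Tubb4b, another broadly used beta tubulin, was at 196 RPKM in shnSR100 cells and 163 RPKM in shGFP cells. The chaperones and cofactors that fold tubulin had a median of −0.04 over 19 genes, and the enzymes that modify it −0.01 over 16 genes, with 0 past 1.5-fold in either list.

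Stathmins bind free tubulin and speed the disassembly of microtubules. Stmn1, the soluble form found in dividing cells, was at 603 RPKM in shnSR100 cells and 518 RPKM in shGFP cells, or 116% (115 to 118). The 3 membrane-bound forms of neurons all lay past 1.5-fold lower. Stmn4 was at 25.7 RPKM in shnSR100 cells and 63.3 RPKM in shGFP cells, which is 40.7% (38.7 to 42.7) and a difference of −1.27 in log2. Stmn2 was at 146 RPKM in shnSR100 cells and 287 RPKM in shGFP cells, or 50.9% (50.1 to 51.9). Stmn2, Stmn3 and Stmn4 together amounted to 0.461 times Stmn1 in shnSR100 cells and 1.03 times Stmn1 in shGFP cells. In the siRNA libraries that ratio ran from 0.719 to 0.891.

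The 3 intermediate filament genes above 1 RPKM were all lower in shnSR100 cells. Nefh was at 10.5 RPKM in shnSR100 cells and 19.9 RPKM in shGFP cells, or 52.7% (50.2 to 55.3). Prph was at 641 RPKM in shnSR100 cells and 872 RPKM in shGFP cells, or 73.5% (72.8 to 74.2). Ina also lay past 1.5-fold. Microtubule-associated proteins were lower in 6 of 6 genes, and the range was narrow, from −0.69 to −0.48 in log2. Map1b, which acts in early axon growth, was at 159 RPKM in shnSR100 cells and 231 RPKM in shGFP cells. Tau (Mapt), which binds axonal microtubules, was at 41.8 RPKM in shnSR100 cells and 67.7 RPKM in shGFP cells. Map2, its dendritic relative, was at 12.1 RPKM in shnSR100 cells and 17.8 RPKM in shGFP cells.

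Collapsin response mediator proteins, which pass on repulsive guidance signals to microtubules, were lower in 4 of 4 genes, with a median of −0.54 in log2. The most abundant of them, Dpysl3, was at 212 RPKM in shnSR100 cells and 338 RPKM in shGFP cells, or 62.9% (62.0 to 63.8). Kinesins were lower in 5 of 5 genes. Kif5a, a neuronal heavy chain of the kinesin-1 motor, was at 33.3 RPKM in shnSR100 cells and 59.1 RPKM in shGFP cells. Its light chain Klc1 was closer, at 77.2 RPKM in shnSR100 cells and 94.7 RPKM in shGFP cells, and so was Kif21b at 5.14 RPKM in shnSR100 cells and 6.46 RPKM in shGFP cells. Outside the list, Kif5b, the kinesin-1 heavy chain of most cells, was at 41.8 RPKM in shnSR100 cells and 42.1 RPKM in shGFP cells.

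The growth and adhesion genes spread widely, from −0.98 to −0.05 in log2. L1cam, an adhesion molecule of axons, was at 59.3 RPKM in shnSR100 cells and 118 RPKM in shGFP cells, or 50.4% (49.5 to 51.2). Gap43, a protein of growth cones, was at 123 RPKM in shnSR100 cells and 220 RPKM in shGFP cells, or 55.7% (54.4 to 57.0). Uchl1 and the adhesion molecule Ncam1 hardly differed by comparison, at 522 and 32.3 RPKM in shnSR100 cells and 595 and 33.6 RPKM in shGFP cells.

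**Figure D3:**
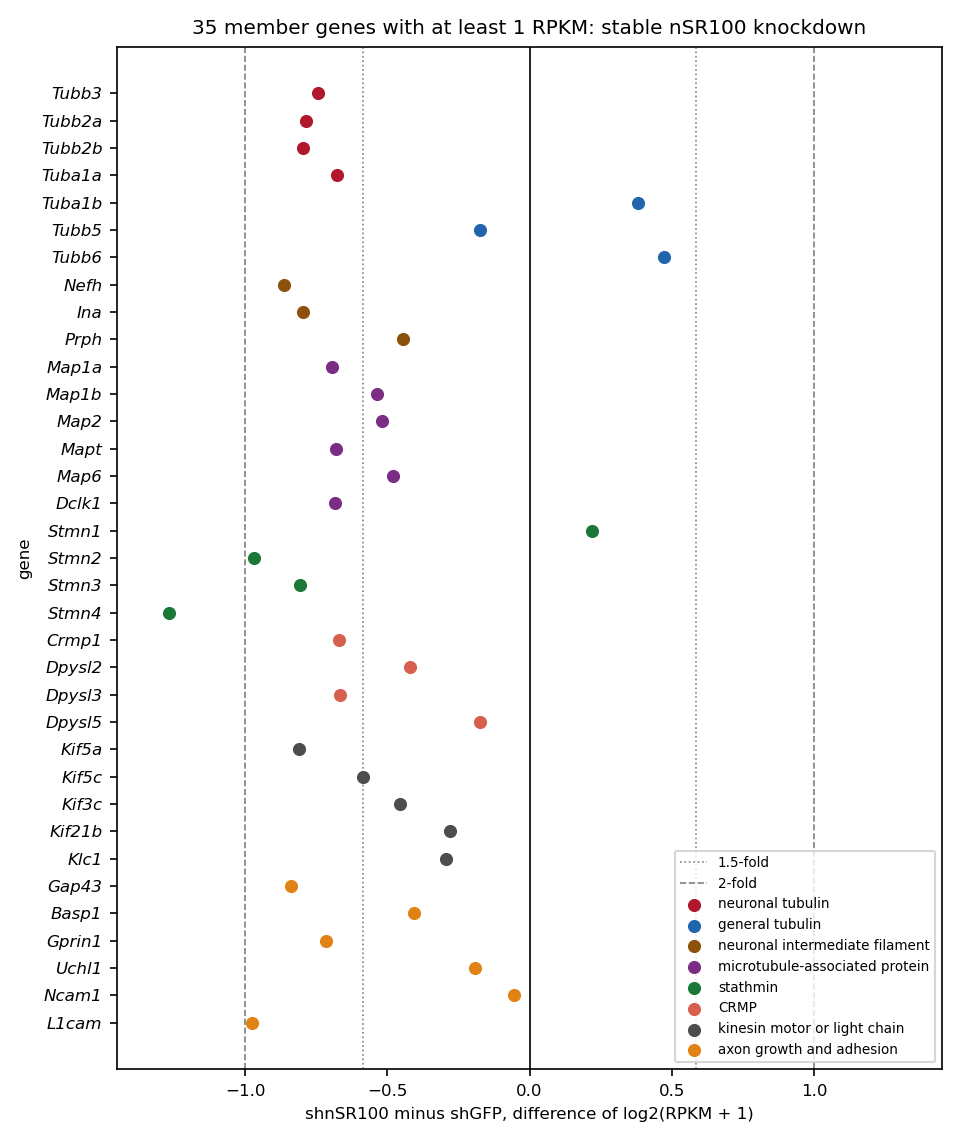
Difference between shnSR100 and shGFP in log2(RPKM + 1) for the 35 genes with at least 1 RPKM, coloured by role, with dotted lines at 1.5-fold and dashed lines at 2-fold. The points left of 0 number 32, Stmn4 lies past the dashed line at −1.27, and the 3 points right of 0 are Tuba1b, Tubb6 and Stmn1.

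Without the tubulins, 27 of 28 members were lower and the median was −0.63 in log2. In 21 of the 35 members the shnSR100 file held the lowest RPKM of all 6 N2A files, where 11.8% of genes did. The shGFP file was the highest of the 6 for some members, such as Tuba1a, Prph and L1cam, and not for others, such as Tubb3 and Gap43. For Dpysl5, Kif5a, Kif21b and Uchl1 it was the highest as well, and the shnSR100 file lay above both siControl libraries. Pan-neuronal markers were lower too: 4 of the 4 above 1 RPKM were lower in shnSR100 cells, and their summed level was 157 RPKM in shnSR100 cells and 258 RPKM in shGFP cells. Snap25, a protein of synaptic release, was at 44.5 RPKM in shnSR100 cells and 102 RPKM in shGFP cells. Of the sympathetic neuroblast markers, Mycn was at 11.3 RPKM in shnSR100 cells and 26.9 RPKM in shGFP cells. The fibroblast markers summed to 6.36 RPKM in shnSR100 cells and 4.53 RPKM in shGFP cells, nearly all from Dcn, with Col3a1 at 0 reads in both. The part of these markers in the members' differences was not tested.

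The other cytoskeletal lists, for comparison, lay nearer to all genes by median in this contrast. Microtubule end-binding, severing and other associated proteins had a median of −0.08 in log2 over 19 genes, and cytoplasmic dynein and dynactin, which move cargo inward, −0.09 over 18 genes. Guidance and adhesion genes outside the members had a median of −0.17 over 19 genes, and other intermediate filaments, lamins included, −0.28 over 7. That list was split. Vim (−0.53, at 571 RPKM in shnSR100 cells and 824 RPKM in shGFP cells), Nes (−0.54) and Des (−0.91) lay lower than the member Prph (−0.44). Lmna and Synm were at −0.28 and −0.08, and Lmnb1 (0.49) and Lmnb2 (0.46) were higher. Other transport kinesins had −0.24 over 12 genes, with 4 past 1.5-fold lower and 1, Kif1c, at 12.9 RPKM in shnSR100 cells and 4.88 RPKM in shGFP cells. These lists were compared by count and median only.

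In siU2af65 cells the same genes gave a mixed picture, with 1 called change. Read counts of the 4 siRNA libraries were fitted for 11237 genes with edgeR's quasi-likelihood test, where a gene was called at a Benjamini-Hochberg adjusted p under 0.05. Of the 35 members tested, 1 rose (Nefh) and 0 fell, where 5.24% of all genes were called, 1.82% higher and 3.42% lower. At an unadjusted p under 0.05 there were 7 members, against 23.5% of genes. DESeq2 called 4 members, against 9.3% of genes. The median difference of the members was −0.18 in log2 (−0.25 to −0.07 in the other fits), and that of all genes 0.00. The spread rests on 1 residual degree of freedom, that of the siControl pair. The labels do not say whether the pair came from separate cultures, so p-values reflect how far apart these libraries lie, a spread that may be technical. The pair itself differed by 1.5-fold or more in 2 members, Kif21b and Map1a, where 13.5% of genes did. Log2 differences between the pair, and those of the knockdowns in the edgeR fit, are on TMM-scaled counts. They therefore depart from ratios of the RPKM printed beside them.

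Nefh, the heavy neurofilament subunit, was at 35.4 RPKM in siU2af65 cells, against 13.9 and 17.6 RPKM in the siControl libraries. It rose by 1.07 in log2 (approximate SE 0.21, adjusted p = 0.0269 by edgeR), and the siControl libraries differed from each other by 0.22 on TMM-scaled counts. Against siControl a alone the value was 1.18, and against siControl b alone 0.96. Across 9 other fits its adjusted p ran from 0.000138 to 0.389, and it passed the threshold in 8. The exception added the shGFP file to the controls. The siU2af65 library lies above both controls for Nefh and for Ina, and also, narrowly, for Prph, at 738 RPKM in siU2af65 cells against 717 and 688 RPKM in the siControl libraries.

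Other members had differences as large or nearly so without passing the test. Kif21b was at 2.07 RPKM in siU2af65 cells, against 0.39 and 0.94 RPKM in the siControl libraries, a difference of 1.56 in log2 (SE 0.48, adjusted p = 0.0898 by edgeR). It passed in 3 of 8 other fits, while with shGFP added to the controls the difference was −0.32. On TMM-scaled counts the siControl libraries themselves differed by 1.16 for that gene. Its difference was 2.25 against siControl a alone and 1.09 against siControl b alone. Klc1 was at 58.5 RPKM in siU2af65 cells, against 100.1 and 94.4 RPKM in the siControl libraries. Its difference was −0.84 (SE 0.24, adjusted p = 0.0728 by edgeR), and it passed in 5 of 9 other fits, as Tubb6 did. L1cam was at 54.9 RPKM in siU2af65 cells, against 83.8 and 82.5 RPKM in the siControl libraries, a difference of −0.70 (SE 0.26, adjusted p = 0.141 by edgeR). Map2 had the same size of difference, −0.70 (SE 0.22, adjusted p = 0.0955 by edgeR), with 10.9 RPKM in siU2af65 cells, against 15.4 and 17.7 RPKM in the siControl libraries. For each of Klc1, L1cam and Map2 the siU2af65 library lay below both controls. Map1b went the other way, at 392 RPKM in siU2af65 cells against 200 and 277 RPKM in the siControl libraries, with a difference of 0.62 (SE 0.44, adjusted p = 0.433 by edgeR).

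The tubulins of siU2af65 cells did not divide into neuronal and general genes. Tubb3 was at 475 RPKM in siU2af65 cells, against 390 and 383 RPKM in the siControl libraries, and is the 1 tubulin of the 7 that lay above both. Tubb6 was at 66.1 RPKM in siU2af65 cells, against 117 and 99.7 RPKM in the siControl libraries (−0.82 in log2, SE 0.24, adjusted p = 0.0764 by edgeR). Tuba1a was at 870 RPKM in siU2af65 cells, against 1049 and 1090 RPKM in the siControl libraries. Tubb2b and Tubb5 also lay below both controls, at 205 and 930 RPKM in siU2af65 cells. In siControl a they were at 307 and 1226 RPKM, and in siControl b at 237 and 949 RPKM. On TMM-scaled counts, siControl b minus siControl a was −0.49 for each in log2, beside differences of −0.52 and −0.34 for the knockdown. Tubb2a and Tuba1b lay between the controls. The ratio of neuronal to general tubulin RNA was 1.06 in siU2af65 cells, against 0.964 and 1.13 in the siControl libraries, within the range of the pair. Without Tuba1a and Tuba1b, whose split is uncertain, it was 0.818 in siU2af65 cells, against 0.615 and 0.721 in the siControl libraries, and from reads in place of RPKM 0.515 in siU2af65 cells, against 0.398 and 0.481. On both of those measures it lay above the pair. An exact permutation test of 1 library against 2 cannot give a p under 0.333, so no test was made.

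The 4 stathmins and Gap43 in siU2af65 cells did not pass the test. Stmn1 and Stmn2 were at 598 and 251 RPKM in siU2af65 cells, against 674 and 333 RPKM in siControl a and 651 and 268 RPKM in siControl b. Stmn4 was at 71.3 RPKM in siU2af65 cells, against 56.9 and 44.0 RPKM in the siControl libraries. Gap43 was at 224 RPKM in siU2af65 cells, against 244 and 236 RPKM in the siControl libraries. Stmn3 lay below both controls, at 196 RPKM in siU2af65 cells against 211 and 204 RPKM in the siControl libraries. The adjusted p of these 5 genes by edgeR ran from 0.378 to 0.68. Mapt, Uchl1, Ncam1, Dpysl3 and Kif5a, at 94.5, 493, 49.5, 262 and 20.2 RPKM in siU2af65 cells, had adjusted p by edgeR from 0.33 to 0.924. By level, 18 of the 35 members lay below both siControl libraries and 12 above both, where 32% and 47.3% of genes did. Among markers of other cells, the immune marker Tyrobp rose (adjusted p = 0.0368 by edgeR), and DESeq2 did not call it. Its level was 3.41 RPKM (120 reads) in siU2af65 cells, against 0.27 and 0.70 RPKM (9 and 28 reads) in the siControl libraries. Those 2 libraries differed from each other by 1.11 in log2 on TMM-scaled counts for Tyrobp. Ptprc had 0 to 2 reads in every file. The immune list summed to 3.88 RPKM in siU2af65 cells, nearly all from Tyrobp, against 0.62 and 1.15 RPKM in the siControl libraries. Cd68 was at 0.40 RPKM in siU2af65 cells, against 0.33 and 0.35 RPKM in the siControl libraries, and Aif1 at 0.07, against 0.02 and 0.10. Of the sympathetic markers, Isl1 fell by 1.70 in log2 (adjusted p = 0.0179 by edgeR), to 5.79 RPKM in siU2af65 cells, against 19.5 and 15.35 RPKM in the siControl libraries. Th was at 3.42 RPKM in siU2af65 cells, against 20.2 and 6.61 RPKM in the siControl libraries, and did not pass (adjusted p = 0.0843 by edgeR). The pan-neuronal markers summed to 156 RPKM in siU2af65 cells, against 216 and 221 RPKM in the siControl libraries. Of the 4 tested, 3 were lower and 1, Elavl4, was higher, and edgeR called 0 of them and DESeq2 2. Elavl4 was at 40.5 RPKM in siU2af65 cells, against 29.9 and 36.8 RPKM in the siControl libraries. The part of these markers in the members' values was not tested.

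In the 8 wider lists edgeR called 5 of 116 genes for siU2af65 (4.31%, beside 5.24% of all genes) and DESeq2 10 (8.62%, beside 9.3%), shares close to those of all genes. edgeR called Map1s, a relative of Map1b, which rose by 0.90 in log2 (adjusted p = 0.0396 by edgeR) and was the 1 of 19 end-binding, severing and other associated proteins to pass. Of 18 dynein and dynactin genes 2 fell, Nde1 and Bicd2, by 1.02 and 1.10. The intermediate filament gene Synm fell by 1.03, as 1 of 6 in its list, and the actin-binding growth cone protein Marcks fell by 1.15, as 1 of 18. Past 2-fold but not called by edgeR, with their log2 differences, were Tuba1c (−1.08), Tube1 (−1.10), Tbcc (1.32), Kif1c (1.12) and Lmna (−1.02). By edgeR 0 genes passed among 8 other tubulins, 19 folding factors, 16 modifying enzymes and 12 other kinesins, with 3, 3, 3 and 1 at an unadjusted p under 0.05 and 2, 1, 0 and 1 called by DESeq2.

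In siPtbp1 cells the members stayed close to the same 2 controls, with Dpysl3 apart from the rest. edgeR called 0 of the 35 members, where it called 0.0267% of all genes, which is 3 genes, Ptbp1 among them. At an unadjusted p under 0.05 there were 3 members, against 4.28% of genes, and DESeq2 called 1 member, Dpysl3, against 0.178% of genes. The median difference of the members was −0.06 in log2, and that of all genes 0.01. By level, 11 members lay below both controls and 11 above both, where 23% and 39.5% of genes did.

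Dpysl3, the most abundant collapsin response mediator protein here, was at 100.5 RPKM in siPtbp1 cells, against 275 and 274 RPKM in the siControl libraries. Its difference was −1.50 in log2 (SE 0.28, unadjusted p = 0.00039, adjusted p = 0.348 by edgeR). On the same TMM-scaled counts the controls differed from each other by −0.12. It passed the threshold in 5 of 9 other fits, with adjusted p from 9.32e-09 to 0.999, and the value was −1.44 against siControl b alone and −1.56 against siControl a alone. The 5 other files, siU2af65 included, held 212 RPKM or more.

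Kif5a was at 40.3 RPKM in siPtbp1 cells, against 21.9 and 27.4 RPKM in the siControl libraries, a difference of 0.66 (SE 0.21, adjusted p = 0.927 by edgeR). Map2 was at 11.7 RPKM in siPtbp1 cells, against 15.4 and 17.7 RPKM in the siControl libraries, a difference of −0.55 (SE 0.22, adjusted p = 0.999 by edgeR). Ncam1 was at 40.8 RPKM in siPtbp1 cells, against 54.7 and 50.5 RPKM in the siControl libraries, and Mapt at 67.4 RPKM in siPtbp1 cells, against 90.8 and 79.2 RPKM in the siControl libraries. All 4 lay outside the pair, Kif5a above and the other 3 below. Klc1, which lay below both controls in siU2af65 cells, lay above both in siPtbp1 cells at 118 RPKM. Nefh stayed between them at 15.02 RPKM.

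Neuronal tubulins in siPtbp1 cells differed from the controls by −0.16 to 0.01 in log2, and general tubulins by −0.14 to 0.23, with SE from 0.21 to 0.44. Tubb3 was at 358 RPKM in siPtbp1 cells, against 390 and 383 RPKM in the siControl libraries, and Tuba1b at 722 RPKM in siPtbp1 cells, against 601 and 583 RPKM in the siControl libraries. Tuba1a was at 1068 RPKM in siPtbp1 cells, between its controls. The ratio of neuronal to general tubulin RNA was 0.899 in siPtbp1 cells, against 0.964 and 1.13 in the siControl libraries, below both, by a smaller step from the nearer one than the step between the pair. Over the 8 wider cytoskeletal lists edgeR and DESeq2 each called 0 of 116 genes in siPtbp1 cells, and 7 had an unadjusted p under 0.05 in edgeR. Ttll3 (−1.11 in log2) and Klc3 (1.30) were past 2-fold there without being called.

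**Figure D4:**
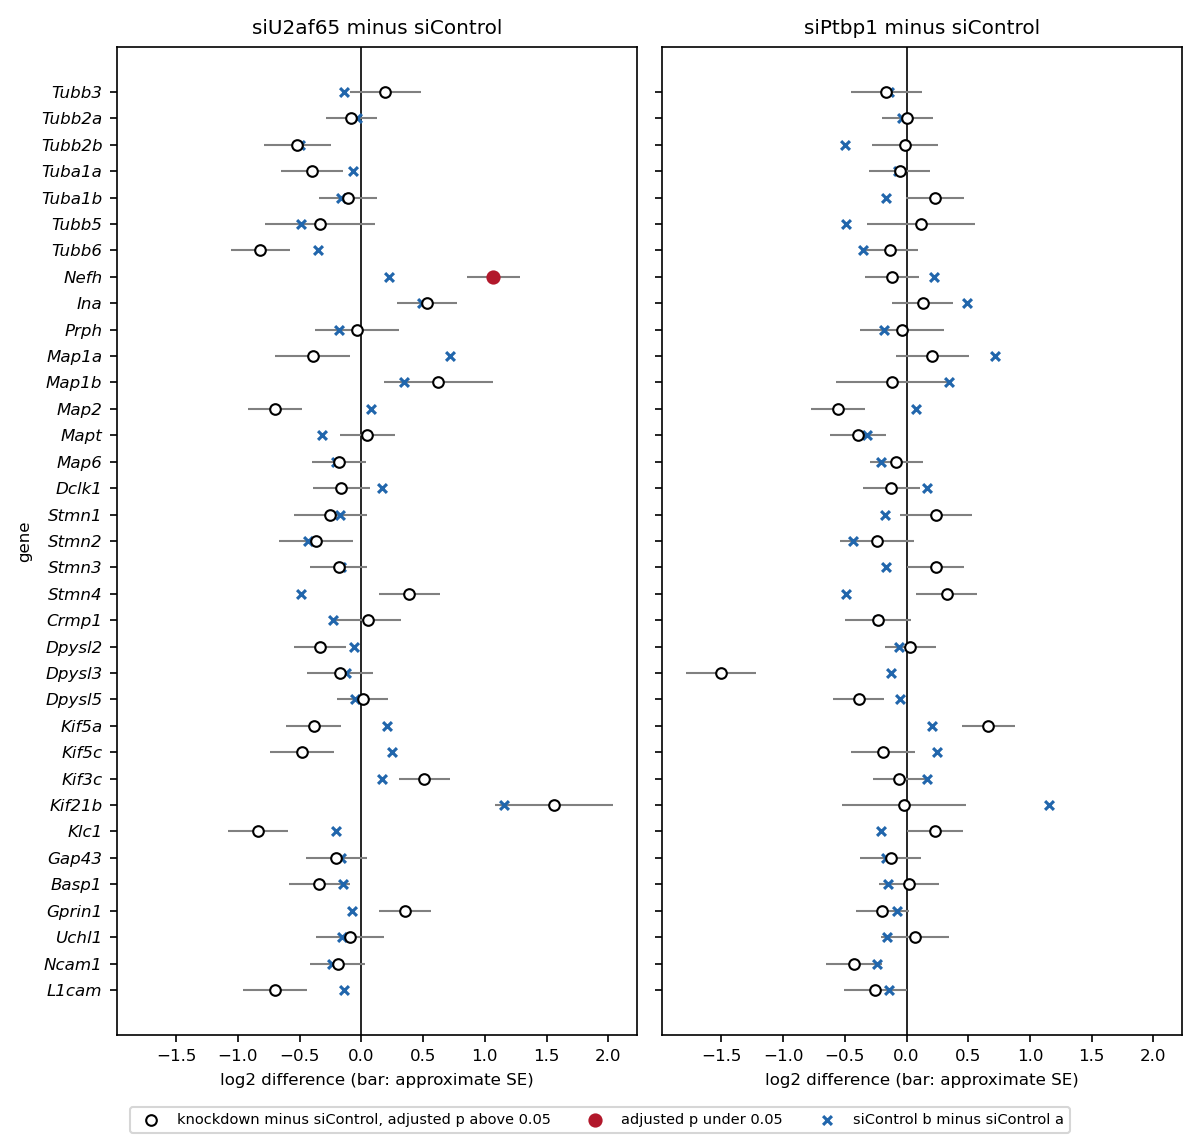
Differences in log2 of siU2af65 (left) and siPtbp1 (right) from siControl for the 35 tested genes, with bars of 1 approximate SE. The filled point is Nefh at 1.07, blue crosses show siControl b minus siControl a, and the lowest open point on the right is Dpysl3 at −1.50.

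Set side by side, single members took different values in the 3 knockdowns. Nefh was at 52.7% of shGFP in shnSR100 cells, and its log2 differences from siControl were 1.07 in siU2af65 cells and −0.12 in siPtbp1 cells. Stmn4, the lowest member in shnSR100 cells, had differences of 0.39 in siU2af65 cells and 0.33 in siPtbp1 cells, neither past the test. Map2 had a difference of −0.52 in shnSR100 cells on log2(RPKM + 1), and of −0.70 in siU2af65 cells and −0.55 in siPtbp1 cells in the edgeR fit, where neither passed. L1cam had −0.98 in shnSR100 cells, −0.70 in siU2af65 cells and −0.25 in siPtbp1 cells. The hairpin and siRNA cells were handled differently and no difference between the contrasts was tested.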

How the data were processed

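From the 22 samples, the 6 N2A files were used. The 293T files and the 12 crosslinking libraries were not analysed here. Libraries were standard Illumina mRNA-Seq from TRI Reagent RNA, per the labels' protocols, and the runs of each hairpin group were combined, per the labels. The authors deposited, per Ensembl gene and without a header line, an RPKM value and a read count. A blank count was read as 0, and 1114 genes have no RPKM. For 5756 genes a length was implied from reads, RPKM and total in the file with the most reads of the gene. RPKM recomputed with that length in all 6 files deviated by 0.087% at most. This shows only that each gene's RPKM used the same length and scaling across files, and no annotated gene length was compared. Per the submitters' processing notes, the tools were Bowtie and bedtools 2.17.0, the builds mm9 and hg19, with roles not stated. The counting rule, strand use and annotation are not given in the sources used here, so genes with close copies or overlaps are uncertain. Symbols were matched to 20759 of 22667 identifiers.

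The members and all gene lists were chosen with earlier results of these data known. Counts of the 4 siRNA libraries were fitted with edgeR 4.0.16 (R 4.3.3, limma 3.58.1, TMM scaling, quasi-likelihood test) on the 11237 genes that averaged 1 RPKM or more, with Benjamini-Hochberg adjustment over all of them and a threshold of 0.05. The prior had 8.65 degrees of freedom and the common dispersion was 0.0375. The SE is the log2 difference divided by the square root of F. The script was tested on simulated counts. Hairpin files were compared by log2(RPKM + 1), which understates changes of low genes, for genes that reached 1 RPKM in either file. Alternatives were DESeq2 1.42.0 and its size factors, library totals, limma with trend on log2(RPKM + 1) and log2(RPKM + 0.1), no filter, a mean of at least 5 RPKM, a robust fit, shGFP added to the controls, and leaving out each control. Named in full were the 7 tubulins, members called, the 5 with the largest difference in each comparison and the most abundant member of each role. From the wider cytoskeletal lists, genes called or past 2-fold were named. Tubb4b, Kif5b, Stmn3, the other intermediate filament genes named for shnSR100 and the marker genes named were chosen after their values were seen. The neuroblast marker list as a whole is not reported here.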

Additional observations from a re-analysis of the deposited data

How the results depend on the processing

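No paired analysis was possible because a paired fit would have no residual degree of freedom: each siRNA knockdown has 1 library and shares 1 letter with siControl, and the hairpin runs were pooled. Differences from the control of the same letter are values with no test, such as 1.18 for Nefh in siU2af65 and −1.44 for Dpysl3 in siPtbp1. For siU2af65 the count of members called was 1, and it became 4 with library totals, DESeq2 or no filter, 5 with limma at either pseudocount, and 0 with shGFP among the controls, a group that mixes stable and transfected cells. All genes called there numbered 589 (205 higher, 384 lower). They numbered 1158 with library totals (580 higher, 578 lower), 1045 with DESeq2, 1285 and 1261 with limma at pseudocounts of 1 (655 higher, 630 lower) and 0.1, 1649 without a filter, 257 at a mean of at least 5 RPKM and 0 with shGFP. For siPtbp1 the count of members called was 0, and 1 (Dpysl3) with library totals, DESeq2, limma at either pseudocount or no filter. All genes called there numbered 3, against 86 with library totals, 20 with DESeq2, 99 and 106 with limma, 99 without a filter, 1 at 5 RPKM and 0 with shGFP. Members past 2-fold in shnSR100 numbered 1, against 19 at 1.5-fold and 3 on TMM-scaled CPM, and the count at 1.5-fold was 19 to 20 over 3 scales, a comparison added after the data were seen. The tubulin ratio of siU2af65 over siControl was 1.02, against 1.18 from reads and 1.23 without Tuba1a and Tuba1b. Without one control it ran from 0.938 to 1.10, and for siPtbp1 from 0.795 to 0.933, against 0.861. Some signs turned, in values near 0 that no fit called and in Kif21b in siU2af65, at 1.56, which 3 of 8 other fits called. Across the fits of all libraries these were, in siU2af65, Tubb2a at 0.021 (library totals), 0.02 (limma) and 0.064 (shGFP), Prph at 0.072 (library totals) and 0.071 (limma), Uchl1 at 0.01 (library totals) and 0.009 (limma), Ncam1 at 0.012 and Kif21b at −0.315 (shGFP), and Mapt at −0.017 (no filter). In siPtbp1 they were Tubb2a at −0.007 (DESeq2 and its size factors), −0.012 (no filter) and −0.017 (5 RPKM), Tubb2b at 0.051 (library totals), 0.063 (limma) and 0.192 (shGFP), Tubb6 at 0.085 (shGFP), Prph at 0.018 (library totals, limma), and Kif21b at 0.007 (library totals), 0.024 and 0.109 (limma). With 1 control left out, 2 signs turned in siU2af65, Prph at 0.06 and Mapt at −0.103, and 8 in siPtbp1, from −0.11 (Tubb5) to 0.671 (Kif21b), with Tubb2b at 0.256 and the other 5 between. In siU2af65 the median of all genes was 0.095 with library totals and 0.096 and 0.108 with limma at pseudocounts of 1 and 0.1, against 0.00. That of the members was −0.076, −0.074 and −0.077 in those fits, which scale by the file's total, against −0.18. With DESeq2 the medians of all genes and of the members were −0.013 and −0.192, and with its size factors −0.014 and −0.192. The cause of the shift was not tested. Each knockdown has 1 library and the spread rests on 1 pair of controls, so a value of a single library cannot be told apart from that of its condition.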
